A study of Mus musculus with 12 samples.

Results

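The S100 gene cluster of mouse chromosome 3 was described here through 10 of its genes, S100a1, S100a13, S100a14, S100a16, S100a3, S100a4, S100a5, S100a6, S100a8 and S100a9, in chromosome order. They were chosen by name, out of 21900 protein-coding genes in the annotation used. On GRCm38 they lie in chr3:90511034-90695721, and the block examined ran 10000 bp further on either side, over chr3:90501034-90705721 (205 kb). The measurement was chromatin immunoprecipitation followed by sequencing (ChIP-seq), which recovers DNA bound to histones that carry a given mark. The cells were fibro-adipogenic progenitors (FAPs), a stromal population of muscle able to turn into fat cells or into fibroblasts that lay down matrix, isolated by flow cytometry with a gate not given in the sources used here. All animals were C57Bl6 mdx mice, a dystrophin-deficient model of Duchenne muscular dystrophy, so that the controls carry the mdx allele too. Young (1.5 months) and old (12 months) mice received intraperitoneal saline, the vehicle, or TSA for 15 days at 0.6 mg/kg/day; TSA, trichostatin A, blocks the enzymes that remove histone acetylation. There was 1 library for each mark, age and treatment, with no replicates and no statement in the labels on how many mice stood behind it. No difference between conditions could therefore be set against a replicate spread, and intervals and standard errors (SE) below cover counting error only.

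S100 proteins are small calcium-binding proteins with paired EF-hand motifs that mostly work as dimers, inside cells on cytoskeletal and membrane partners and, once released, on receptors of other cells. Most of the family sits side by side in this cluster, and the genes differ in the cell types that use them: S100a4 and S100a6 are used in fibroblasts and other mesenchymal cells, S100a8 and S100a9 in neutrophils and monocytes, and S100a3 and S100a14 in hair and other epithelia. Acetylation of histone H3 at lysine 27 (H3K27ac) marks active promoters and enhancers, and acetylation at lysines 9 and 14 (H3K9/14ac) is found above all at active promoters.

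The sequences below are the 250 bases before the start sites of 4 members, from RefSeq's annotation of GRCm38.p6. They are shown as examples of start sites with an H3K27ac peak in every library and of start sites with none. The start sites of S100a4 and S100a6 lay under an H3K27ac peak in all 4 libraries, and those of S100a8 and S100a9 under no peak of either mark in any library. They are written 5′ to 3′ on the gene's strand, S100a4 from chr3:90603520-90603769 (+), S100a6 from chr3:90612644-90612893 (+), S100a8 from chr3:90668821-90669070 (+) and S100a9 from chr3:90695722-90695971 (-). Capitals mark a TATA box in S100a4 and S100a8, a CCAAT box read on the opposite strand in S100a6, and a GC box in S100a9.
S100a4: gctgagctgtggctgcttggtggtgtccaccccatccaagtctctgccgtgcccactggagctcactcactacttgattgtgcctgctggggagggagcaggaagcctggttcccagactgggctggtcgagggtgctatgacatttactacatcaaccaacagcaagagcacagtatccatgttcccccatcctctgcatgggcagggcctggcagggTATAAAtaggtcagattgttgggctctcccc
S100a6: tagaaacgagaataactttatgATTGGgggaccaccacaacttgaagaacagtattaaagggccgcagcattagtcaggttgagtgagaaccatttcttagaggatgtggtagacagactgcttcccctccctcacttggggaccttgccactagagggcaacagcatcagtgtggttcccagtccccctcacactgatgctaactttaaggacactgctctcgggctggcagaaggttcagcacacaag
S100a8: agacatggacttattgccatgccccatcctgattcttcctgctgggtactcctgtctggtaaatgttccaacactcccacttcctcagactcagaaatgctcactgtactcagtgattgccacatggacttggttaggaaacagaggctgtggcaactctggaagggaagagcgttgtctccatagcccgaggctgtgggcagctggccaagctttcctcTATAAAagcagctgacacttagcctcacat
S100a9: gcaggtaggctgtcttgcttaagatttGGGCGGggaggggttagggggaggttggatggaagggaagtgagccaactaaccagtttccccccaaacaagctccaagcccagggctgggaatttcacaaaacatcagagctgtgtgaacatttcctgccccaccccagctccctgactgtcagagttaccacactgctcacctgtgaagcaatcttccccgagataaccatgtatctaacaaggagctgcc
Both strands were searched for 7 motifs, and 32851 promoters of the same length gave the background. The TATA box (TATAAA) was found in 12.4% of them, the CCAAT box (CCAAT) in 33.8%, the GC box (GGGCGG) in 32.7%, the AP-1 motif (TGANTCA) in 6.75%, the ETS motif (CCGGAAG) in 6.91%, the C/EBP motif (TTGCGCAA) in 0.164% and the E-box (CANNTG, not capitalised above) in 66.2%. The table held 13 start sites of 9 members and none of S100a14. The promoters of S100a4, under peaks, and of S100a8, under none, each held 1 TATA box, so that this letter match did not separate the marked from the unmarked gene. The promoter of the second S100a16 start site, at position 90541146, held the only AP-1 match of the 13.

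The lists are the authors' peaks, each with its tags, the sequenced fragments counted in it. Each list breaks off along the genome, and the H3K9/14ac list of young vehicle mice ends before chromosome 3, so that this library's S100 block was not analysed here. The 4 H3K27ac lists share a stretch of 8708 regions, where overlapping peaks of any library were merged into 1 region, and 3789 protein-coding genes. The 3 remaining H3K9/14ac lists share 6709 regions and 5157 genes. Tags in the shared stretch ran from 952786 to 1659160 for H3K27ac and from 807010 to 1189219 for H3K9/14ac. Of the FAP markers listed, 7 lay in the H3K27ac stretch (Cd34, Prrx1, Twist2, Gsn, Dpt, Col3a1 and Fap), and all 7 had a peak within 1000 bp of an end in each H3K27ac library. Endothelial markers had peaks as well, 4 of 4 in each H3K27ac library (Sox17, Sox18, Egfl7 and Eng), with 11221 and 10600 tags in the young vehicle and TSA libraries and 4797 and 8285 in the old ones. The part of other cells in the results was not tested.

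H3K27ac peaks lay on the S100a1 to S100a6 side of the block and left the S100a8 and S100a9 side bare. The block held 21 peaks over 27672 bp in the young vehicle library, 18 over 22553 bp with TSA in young mice, 17 over 23557 bp in the old vehicle library and 25 over 31572 bp with TSA in old mice. The covered share of the block was thus highest in the old TSA library, at 15.4%, against 13.5% in the young vehicle library and less in the other two. H3K9/14ac peaks were fewer, with 8 over 10354 bp in the young TSA library, and in the old mice 10 over 11582 bp after vehicle and 8 over 11851 bp after TSA, which is 5.06% to 5.79% of the block. They lay mostly inside H3K27ac peaks of the same condition, which covered 92.0%, 86.5% and 96.7% of their length in the same order. By count, 8 of 8, 9 of 10 and 8 of 8 overlapped one by at least 1 bp. Of the H3K27ac peaks, 6 of 18, 7 of 17 and 7 of 25 overlapped an H3K9/14ac peak. No overlap share over all peaks of the stretch is available beside these counts, so they are not a trait particular to the block. From the last peak to the end of the block, 88.8 to 90.2 kb held no peak of either mark in any library.

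**Figure D1:**
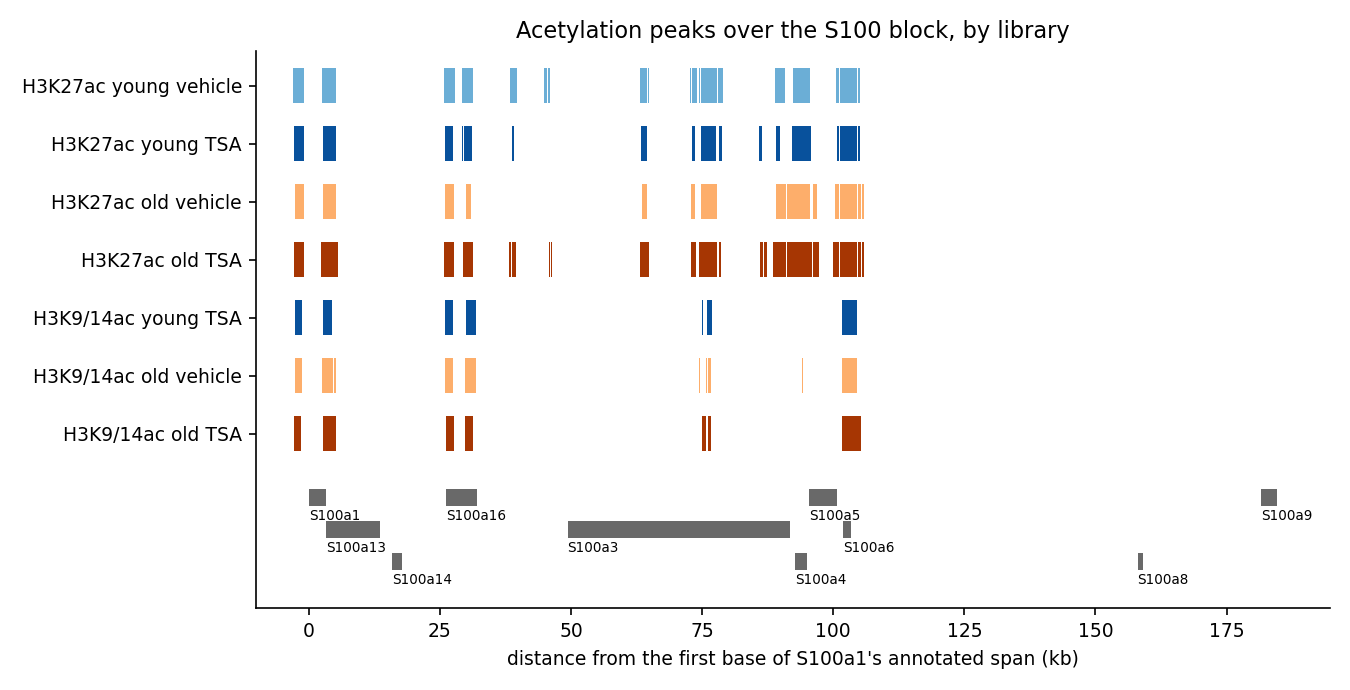
Peaks of the 7 libraries (coloured bars, 1 row per library) along the S100 block, with the 10 listed genes as grey bars below; the horizontal axis gives kb from the first base of S100a1's annotated span. Of the 24 H3K27ac regions, 12 hold a peak in all 4 libraries of that mark, and no peak lies over S100a14, S100a8 or S100a9.

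S100a8 and S100a9, which encode the pair of subunits of calprotectin, had no peak of either mark in any of the 7 libraries, and neither had S100a14, an epithelial family member. A list of called peaks does not give the tags below the caller's threshold, so no upper limit could be set. The last H3K27ac region ended 52198 bp before S100a8. Neutrophil markers were likewise without H3K27ac peaks: of 4 in the H3K27ac stretch (Cxcr2, Lcn2, Mmp9 and Il1b), 0 had a peak near an end and the summed tags were 0 in all 4 libraries. Of 6 in the H3K9/14ac stretch, Lcn2 was marked in the young TSA library, and peaks away from the ends were assigned to Mmp9 and Padi4. H3K9/14ac tags of the neutrophil list summed to 197, 76 and 0 in young TSA, old vehicle and old TSA mice. Macrophage markers were not all bare. Spi1, a transcription factor of myeloid cells, had a marked end in both old H3K27ac libraries and in neither young one, 1 of 7 on the list. Most H3K27ac tags of the list were instead assigned to Ptprc and Fcgr3. Neither of these had a marked end in any library of either mark, so their tags came from peaks away from the ends. Ptprc, which encodes the leukocyte surface protein CD45, had 1209 and 941 tags in the young libraries and 255 and 562 in the old ones. Summed over the list, H3K27ac tags were 1645 and 1333 in the young vehicle and TSA libraries, and 579 and 1133 in the old ones. H3K9/14ac did not share the Spi1 pattern, since its end was marked by H3K9/14ac in every library analysed. Spi1 held 246 H3K9/14ac tags in young mice given TSA, more than the 154 (vehicle) and 89 (TSA) of old mice. The list's H3K9/14ac tags summed to 948 in those young mice, and to 442 (vehicle) and 532 (TSA) in old mice. The 16 listed genes of the epidermal differentiation complex, the neighbouring cluster of skin barrier genes, had 0 marked ends in every library of both marks. Some peaks away from the ends were still assigned to them. Lor had 304, 362 and 239 H3K9/14ac tags in young TSA, old vehicle and old TSA mice. Hrnr had 68 and 81 H3K27ac tags in the young vehicle and TSA libraries, and 113 and 80 in the old ones.

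S100a6, which encodes calcyclin, carried the densest H3K27ac of the members. Its peaks held 1336 tags in young mice given vehicle and 1293 with TSA, and 1280 and 1666 in old mice given vehicle and TSA, the order of libraries kept below. Per kb of covered length these were 360, 343, 307 and 387 tags, the highest of any member in each of the 4 libraries, whereas the peaks of the whole stretch averaged 206, 230, 198 and 217. The main peak hardly changed shape: it began 591 to 638 bp upstream of the start site and ended 2694 to 2701 bp downstream in all 4 libraries. H3K9/14ac peaks assigned to S100a6 held 588, 839 and 579 tags in young TSA, old vehicle and old TSA mice. Of these, 545, 839 and 498 were in the peak over the start site and gene body, which began 162 to 252 bp upstream. A small region behind the gene, chr3:90616441-90616873, had an H3K27ac peak only in the old libraries, with 47 tags after vehicle and 59 after TSA.

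S100a4, which encodes a protein long used as a fibroblast marker, had broad H3K27ac and almost no H3K9/14ac. Its H3K27ac tags were 677 and 606 in the young libraries and 679 and 1048 in the old ones, with the old TSA library the highest. The covered length was 3152, 3203, 3357 and 4695 bp in the same order. In the old TSA library the whole stretch chr3:90602212-90606907 was a single peak, the widest in the block, which began 1558 bp upstream of the start site. The peak over the start site began 345 to 616 bp upstream in the other libraries. In the old vehicle library a separate peak of 90 tags, chr3:90602292-90603096, lay just before it and was assigned to S100a3. With all peaks of this stretch counted, the lengths were 3152, 3609, 4161 and 4695 bp in the same order. H3K9/14ac was found there only in the old vehicle library, as 1 peak of 275 bp with 58 tags inside the gene. The marked S100a4 start site was therefore one with H3K27ac and, within 1000 bp, no H3K9/14ac peak in any of the 3 libraries.

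S100a5, known from olfactory neurons, had the fewest H3K27ac tags of the members with peaks, and more of them in old than in young mice. The young libraries had 98 H3K27ac tags after vehicle (95% Poisson interval 79.6 to 119) and 145 after TSA (122 to 171), and the old libraries 219 (191 to 250) and 334 (299 to 372). Both old libraries were above both young ones. All 4 libraries had a peak in chr3:90611027-90612170, near the end of the gene and next to S100a6, with 98, 71, 117 and 174 tags. A further region, chr3:90607080-90607918, which ends 604 bp before the S100a5 start site, had a peak only in the old libraries, with 102 and 121 tags, and the old TSA library had another, of 39 tags, ending 260 bp before that start site. Hence a peak within 1000 bp of the S100a5 start site was present in both old libraries and in neither young one, while with 2500 bp it was present in all 4. No H3K9/14ac peak was assigned to S100a5.

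S100a3, a cysteine-rich member known from the hair cuticle, had the greatest length of H3K27ac peaks assigned to it. Its annotated span of 42351 bp holds 4 start sites and S100a2, and it took 12 peaks over 9893 bp and 7 over 6560 bp in young mice after vehicle and TSA, and 6 over 7395 bp and 12 over 10425 bp in old mice. The tags were 1938, 1431, 1575 and 2388, highest in old TSA and lowest in young TSA mice. The strongest region, chr3:90585791-90588903, spans the start sites at positions 90586952 and 90588563 and held 988, 834, 890 and 1093 tags. A second region, chr3:90599600-90602089, spans the last start site at position 90600214 and ends 1681 bp before the S100a4 start site. Its tags were 256 and 134 in the young libraries, vehicle first, and 334 and 469 in the old ones, so both old libraries again lay above both young ones. H3K9/14ac at S100a3 was low, with 154, 184 and 134 tags, mostly in chr3:90586070-90587816, around the start site at position 90586952.

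At the other end of the cluster, S100a13, which takes part in the non-classical export of growth factors, and S100a1, a regulator of calcium handling in heart and skeletal muscle, are read in opposite directions from start sites 105 bp apart, and 1 peak covered both start sites in each library. It was assigned to S100a13. Its H3K27ac tags were 599, 556, 562 and 769, and 1 or 2 peaks of H3K9/14ac held 340, 540 and 361. The peak assigned to S100a1 by the nearest-gene rule lay outside it, 864 bp beyond its annotated end and over the neighbouring gene Chtop, with 547, 540, 345 and 538 H3K27ac tags, so that it is a value of that stretch rather than of the S100a1 start site. S100a16, a broadly used member studied in adipocyte formation, had 1016, 911, 545 and 1000 H3K27ac tags, and the old vehicle library was the low one. A region behind it, chr3:90549127-90550714, had 173, 58 and 147 tags in young vehicle, young TSA and old TSA mice and no peak in old vehicle mice. Both S100a16 start sites lay under a peak in every library of both marks, with 651, 814 and 436 H3K9/14ac tags for the gene.

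Counted by start site, 9 of 13 lay under an H3K27ac peak in young vehicle mice and 10 of 13 in each other library. For H3K9/14ac the counts were 6, 6 and 5. No share over all start sites of the stretch is available beside these counts, so whether they are high or low was not tested. The sites without H3K27ac in any library were those of S100a5, S100a8 and S100a9. With a window of 1000 bp around each start site (both annotated ends for S100a14), 6 of 10 members were marked by H3K27ac in both young libraries and 7 of 10 in both old ones, S100a5 being the addition. Over all 3789 genes of the stretch, measured the same way, the marked share was 45.4% to 50.2%. The same 5 members, S100a1, S100a13, S100a16, S100a3 and S100a6, were marked by H3K9/14ac in all 3 libraries, beside 55.1% to 57.9% of 5157 genes.

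**Figure D2:**
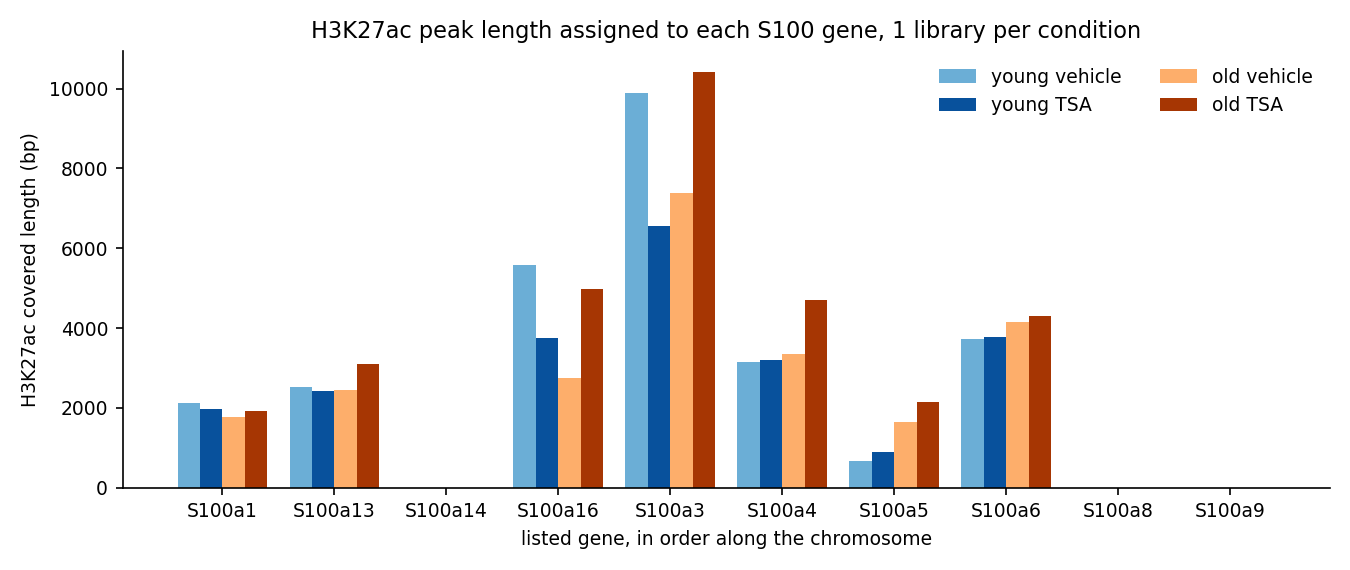
H3K27ac covered length in bp (vertical axis, from 0) of the peaks assigned to each listed gene, with 1 bar per library (1 per condition, no error available). S100a3 holds the most, up to 10425 bp in old TSA mice, and S100a14, S100a8 and S100a9 hold none.

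The comparisons below ask how the block differs with TSA at each age and with age under each treatment. Tags were compared as relative tags, the log2 ratio of 2 libraries minus the median log2 ratio of the regions with a peak in every library of the mark (3706 for H3K27ac and 3467 for H3K9/14ac), since the libraries differ in depth. The median taken off was -0.12 for H3K27ac with TSA in young mice, 0.51 with TSA in old mice, -0.61 for old against young vehicle mice and 0.04 for old against young TSA mice. For H3K9/14ac it was -0.46 with TSA in old mice and -0.47 for old against young TSA mice. A gene or region was called higher or lower past 1.5-fold, and a block where it reached more than 125% of its value in the other library. Comparisons that share a library are not independent: the old vehicle library, for example, stands in both the TSA comparison of old mice and the age comparison under vehicle.

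Old mice had more H3K27ac in the S100 block, relative to the shared regions, than young mice under both treatments. The difference was 0.36 (counting SE 0.03) after vehicle, or 1.28-fold, and 0.46 (SE 0.03) after TSA, or 1.38-fold. In bulk material, a change in how many cells carry the mark and a change in the mark per cell cannot be told apart. Of blocks of equal length tiled over the stretch, 10.8% were called higher after vehicle and 26.3% after TSA. The block took 0.374% of all tags in the stretch in young vehicle and 0.398% in young TSA mice, and 0.546% and 0.517% in old vehicle and old TSA mice, so the old libraries were the high ones. Covered length did not move the same way: it was 0.851-fold in old against young vehicle mice and 1.40-fold in old against young TSA mice. After vehicle 78.7% of equal blocks were called shorter, which the S100 block was not, and after TSA 32.3% were called longer, as it was. Density within peaks was 224 and 221 tags per kb in young and old vehicle mice and 243 and 245 in young and old TSA mice. The endothelial markers went the other way, with a median of -0.63 over 4 genes after vehicle and -0.35 after TSA, while the FAP markers had medians of -0.16 and 0.45 over 7 genes. Their part in the result was not tested.

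By gene, 7 of the 10 members had peaks in both libraries of each H3K27ac comparison. In old against young vehicle mice, S100a5 (1.77, SE 0.18) and S100a4 (0.62, SE 0.08) were higher past 1.5-fold, 2 of 7, beside 6.02% of all genes, and 0 of 7 were lower, beside 19.0%. S100a6 followed at 0.55 (SE 0.06), S100a13 at 0.52 and S100a3 at 0.32, while S100a1 was at -0.05 and S100a16 at -0.29. The median of the 7 was 0.52, beside -0.15 over 1828 genes. In old against young TSA mice, S100a5 (1.17, SE 0.14), S100a4 (0.76, SE 0.07) and S100a3 (0.70, SE 0.05) were higher past 1.5-fold, 3 of 7, beside 12.8% of all genes, and 0 of 7 lower, beside 6.82%. The median was 0.43, beside -0.03 over 1922 genes.

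The values of single members depend on which peaks are given to which gene, because the bodies of S100a3, S100a4, S100a5 and S100a6 lie close together. With every peak within 2000 bp of a gene counted for it, S100a5 was at 0.61 after vehicle and at 0.52 after TSA, the latter under 1.5-fold, and S100a4 at 1.23 and 1.27. With peaks given to the gene with the nearest midpoint, S100a3 was under 1.5-fold after TSA, at 0.40, and S100a4 stood at 0.86 and 0.92. S100a1 then took the shared start site peak besides the peak over Chtop and stood at 0.28 after vehicle and 0.22 after TSA, and S100a13 and S100a5 were left with no value. S100a16 was at -0.46 after vehicle by midpoint and at -0.015 within 2000 bp. S100a6 ran from 0.53 to 0.58 after vehicle and from 0.33 to 0.40 after TSA over the 3 ways of assigning peaks.

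Read along the chromosome, the regions present in every library lay above 0 in old against young mice on the S100a3 to S100a6 side. They were mixed on the S100a1 to S100a16 side. Over the whole stretch, regions present in every library have a median of 0 by construction. Of the 24 H3K27ac regions of the block, 12 had a peak in all 4 libraries. The 8 of these nearest S100a3, S100a4, S100a5 or S100a6 were all above 0 in both age comparisons, from 0.02 to 1.17 after vehicle with a median of 0.63, and from 0.20 to 1.77 after TSA with a median of 0.445. The lowest of the 8 after vehicle, chr3:90583643-90585068 within S100a3, was at 0.02 with an SE of 0.17, so it did not differ from 0 beyond counting error. The 4 nearest S100a1, S100a13 or S100a16 were above 0 in 2 cases under each treatment, with medians of 0.07 and 0.07. On that side the region over the S100a1 and S100a13 start sites stood at 0.52 (SE 0.09) and 0.43 (SE 0.08), as high as the main S100a6 region at 0.46 (SE 0.06) and 0.28 (SE 0.06). After vehicle the highest value was at chr3:90615721-90616279 behind S100a6, at 1.17 (SE 0.25), which was at 0.34 (SE 0.22) after TSA. After TSA the highest was at chr3:90599600-90602089, between the last S100a3 start site and S100a4, at 1.77 (SE 0.14), which was at 0.998 (SE 0.12) after vehicle. The lowest was at the second S100a16 start site, at -0.35 (SE 0.13) and -0.32 (SE 0.11). Over all regions with a peak in both libraries compared, 4 of 12 in the block were higher past 1.5-fold after vehicle, beside 10.6% in the stretch, and 4 of 15 after TSA, beside 11.9%. None was lower, beside 13.2% and 8.05%. The 4 after TSA include chr3:90549127-90550714 behind S100a16, at 1.31 (SE 0.22), which had no peak in old vehicle mice, and chr3:90589106-90590006 within S100a3, also without one there, was at -0.45 (SE 0.22). With a 2-fold threshold the counts were 1 of 12 after vehicle, beside 2.65%, and 3 of 15 after TSA, beside 4.02%. The division of the cluster into these sides was drawn after the values were seen.

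**Figure D3:**
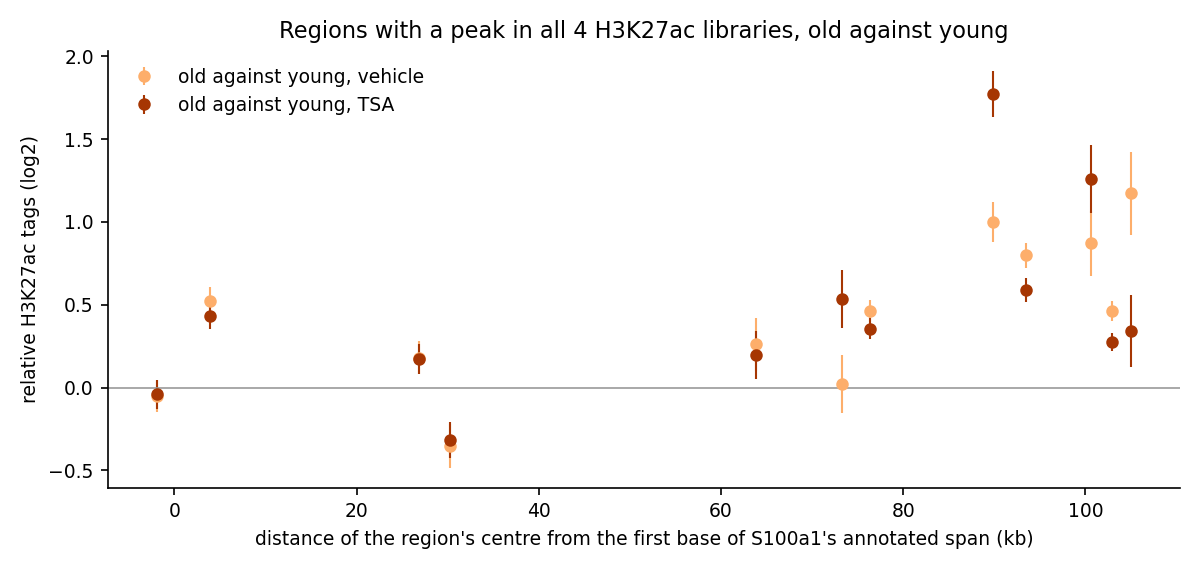
Relative H3K27ac tags (log2, vertical axis) of old against young mice for the 12 regions with a peak in all 4 libraries, placed by kb from the first base of S100a1's annotated span; light points are vehicle, dark points TSA, and bars are 1 counting SE. The 8 regions from 63.8 kb on lie above 0 under both treatments, up to 1.77. By construction, 0 is the median of all regions of the stretch with a peak in all 4 libraries.

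Peaks also came and went with age. Between vehicle libraries, 2 of 20 regions of the block were gained in old mice, beside 3.79% in the stretch, and 6 of 20 were lost, beside 40.5%. The 2 gained were those upstream of the S100a5 start site and behind S100a6. Between TSA libraries, 8 of 23 were gained, beside 26.5%, and 0 of 23 were lost, beside 7.56%. The counts rest on small peaks: with regions merged across gaps of up to 500 bp, the gains fell to 0 after vehicle and 1 after TSA, and the losses after vehicle to 2.

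With TSA, H3K27ac of the block was shorter in young mice and longer in old mice, and its tags moved little beyond the shift of the shared regions. Covered length was 0.815-fold in young and 1.34-fold in old mice. Of equal blocks, 56.1% were called shorter with TSA in young mice, a bound the S100 block did not pass, and 62.9% were called longer with TSA in old mice, a bound it passed. Most of the stretch thus moved in these directions too. Relative tags were -0.06 (SE 0.03) in young and 0.07 (SE 0.03) in old mice, and both signs turned, to 0.09 and -0.08, when the libraries were scaled by all tags in peaks instead. By region, 1 of 19 was gained with TSA in young mice, beside 4.26%, and 4 of 19 were lost, beside 31.9%, while in old mice 9 of 23 were gained, beside 33.9%, and 0 of 23 lost, beside 4.31%. With gaps of up to 500 bp merged, the losses in young mice fell to 1 and the gains in old mice to 3. The gains in old mice included chr3:90549127-90550714 behind S100a16 and chr3:90596892-90597672 within S100a3.

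Among the members, S100a5 was higher past 1.5-fold with TSA in young mice (0.68, SE 0.19), 1 of 7, beside 3.26% of genes, and 0 of 7 were lower, beside 9.68%. This value came from a peak of 74 tags at the S100a4 border that the nearest-gene rule gave to S100a5, and with all peaks within 2000 bp it was 0.06. S100a3 was at -0.32 (SE 0.05), and its region before S100a4, chr3:90599600-90602089, was at -0.82 (SE 0.15), while the S100a6 region chr3:90612256-90615595 was at 0.04 (SE 0.06). In old mice 0 of 7 were higher past 1.5-fold, beside 14.9% of genes, and 0 of 7 lower, beside 2.22%. There the values ran from -0.12 for S100a6 to 0.37 for S100a16, with a median of 0.10 beside 0.09 over 1847 genes. S100a4, whose peak was the widest in old TSA mice, was at 0.12 (SE 0.07) once the shift of 0.51 was taken off. The region chr3:90602212-90606907, with all peaks in it counted, was at -0.06 (SE 0.07).

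**Figure D4:**
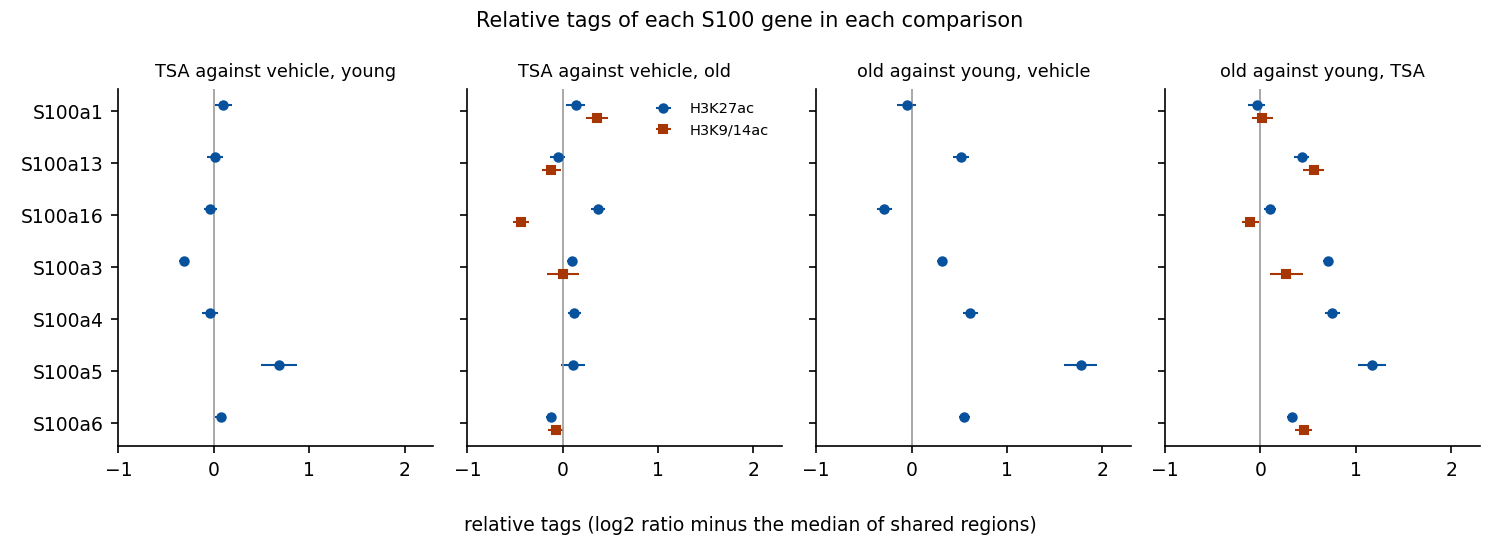
Relative tags (log2, horizontal axis) of each member with peaks, in the 4 comparisons, for H3K27ac (circles) and H3K9/14ac (squares); bars are 1 counting SE from 1 library per condition. For H3K27ac, S100a3, S100a4, S100a5, S100a6 and S100a13 lie right of 0 in both age comparisons, and S100a1 lies near 0 there.

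H3K9/14ac differed less in length than H3K27ac did. Its covered length in the block was 1.02-fold with TSA in old mice and 1.14-fold in old against young TSA mice. Relative tags were -0.15 (SE 0.04) with TSA in old mice and 0.23 (SE 0.05) in old against young TSA mice, so the age difference had the sign of H3K27ac. With TSA in old mice, 0 of 5 members with peaks were past 1.5-fold in either direction, beside 20.8% of genes, and S100a16 at -0.44 (SE 0.09) and S100a1 at 0.36 (SE 0.12) stood at the ends of the range. The S100a1 value is that of the peak over Chtop, and it was 0.21 by midpoint and 0.08 within 2000 bp. In old against young TSA mice the count was again 0 of 5, beside 21.5%, with S100a13 at 0.56 (SE 0.11), S100a6 at 0.45 (SE 0.08), S100a3 at 0.27, S100a1 at 0.02 and S100a16 at -0.10. By region, 1 of 9 was gained and 2 of 9 lost with TSA in old mice, beside 10.3% and 22.7%, and 1 of 7 gained and 0 of 7 lost in old against young TSA mice, beside 8.83% and 29.9%. With gaps of up to 500 bp merged, no gain was left in either comparison and 1 loss in the first.

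Family members outside the 10 stayed near the shared regions with age for H3K27ac. S100a10, the annexin A2 partner, was at 0.03 (SE 0.04) for H3K27ac in old against young vehicle mice and -0.04 (SE 0.04) in old against young TSA mice. S100a11 was at 0.05 (SE 0.07) and 0.08 (SE 0.07). For H3K9/14ac in old against young TSA mice, S100a10 was at 0.32 (SE 0.09) and S100a11 at 0.23 (SE 0.11), beside 0.23 for the block. With TSA in old mice their H3K9/14ac stood at 0.51 (SE 0.09) and 0.48 (SE 0.11), beside -0.15 for the block. Both had marked ends in every library of both marks, and S100a7a and S100a7l2 in none. S100a2, which lies inside the annotated span of S100a3, had an H3K27ac peak within 1000 bp in 3 libraries and not in the old vehicle one. Of the 14 neighbouring genes listed, 12 had a value in each age comparison of H3K27ac, 0 of them past 1.5-fold either way, with medians of -0.09 after vehicle and -0.03 after TSA. Over all genes, 6.02% were higher and 19.0% lower after vehicle, and 12.8% higher and 6.82% lower after TSA. For H3K9/14ac in old against young TSA mice, 3 of 13 neighbours were higher and 0 lower, beside 21.5% of all genes past 1.5-fold in either direction. With TSA in old mice 4 of 13 were higher and 1 lower, beside 20.8%. Of the partners and receptors listed, Cacybp, which encodes a calcyclin-binding protein, lay in the H3K27ac stretch and was at -0.16 (SE 0.08) and -0.37 (SE 0.08) in the 2 age comparisons. Tlr4, a receptor for released S100a8 and S100a9 proteins, lay in the H3K9/14ac stretch and was at 0.67 (SE 0.11) with TSA in old mice.

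The H3K27ac length per kb of the block was 135 and 110 bp in young mice after vehicle and TSA, and 115 and 154 bp in old mice. Among 2100 genes marked in all 4 libraries and at least 200000 bp away, the most like in these 4 values, by the summed absolute log2 difference, were Ampd2 (0.250), an AMP deaminase gene, Msc (0.255), which encodes the transcription factor musculin, Setd7 (0.318), a lysine methyltransferase gene, Nav1 (0.350) and Gm38664 (0.351). Ampd2, for example, had 123, 109, 110 and 158 bp per kb.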

How the data were processed

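ChIP-seq peak lists of H3K27ac and H3K9/14ac were used for 8 immunoprecipitated samples, and the 4 input samples were not used. Per the file headers, each list was made by HOMER with a library's tag directory set against itself, and the deposited values are whole-number tag counts per peak, not normalized. The submitters' processing notes name Bowtie 0.12.7, HOMER, MACS2 and GRCm38, among others, without roles. Each list ends in 1 incomplete line, which was left out. The input depth and library totals are not given in the sources used here, and complete tags in the shared stretch served as depth.

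Peaks touching the block were counted once and given to the nearest listed gene, and covered length was clipped to the block. Peak length is end minus start. Regions, relative tags and folds were computed in Python 3.11.15 with numpy 2.4.6 and scipy 1.17.1, and intervals are exact Poisson intervals at 95%. There was 1 library for each condition, so no test between groups was made. The counting was tested on simulated peaks. Gene positions, symbols and promoters come from RefSeq tables of GRCm38.p6. The 10 genes were all named, other genes only from lists of family members, partners, neighbours, epidermal genes and cell type markers and as the 5 genes most like the block. The members and lists were chosen with earlier results of these data known. Other flanks, peak widths, list lengths, scalings, merging gaps, gene assignments and fold thresholds were tried.

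Further marker lists gave these counts of marked ends for H3K27ac in young vehicle, young TSA, old vehicle and old TSA mice: muscle fibre 1, 1, 0 and 1 of 7 (Casq1), muscle stem cell 0 of 1 in each and tenocyte 1, 0, 1 and 1 of 2 (Prg4).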

Additional observations from a re-analysis of the deposited data

Results flagged for a closer look

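The sign of some H3K27ac differences was opposite at the 2 ages or under the 2 treatments. The covered length of the S100 block with TSA had a log2 ratio of -0.295 in young and 0.422 in old mice. Its relative tags with TSA were -0.061 in young and 0.068 in old mice. The relative tags of S100a3 with TSA were -0.318 in young and 0.096 in old mice. The covered length in old against young mice had a log2 ratio of -0.232 after vehicle and 0.485 after TSA, and the vehicle value was -0.038 with only the upper 50% of peaks by width. With 1 library for each condition, none of these differences was tested. The 4 libraries enter these contrasts in pairs, so the length values restate the same 4 lengths.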

How the results depend on the processing

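No paired analysis was possible because each mark, age and treatment had 1 library. Depth limits small peaks most, and the lists do not show tags outside called peaks. Over 24 alternative values of covered length in the block, 1 changed sign: H3K9/14ac in old against young TSA mice was -0.014 with the upper 50% of peaks by width. The H3K27ac length in old against young vehicle mice shrank from -0.232 to -0.038 with that choice and to -0.125 with lists of equal length. Of 42 alternative values of relative tags, 28 stayed within the 95% counting interval of the reported value and 14 did not. For H3K27ac with TSA in old mice they were -0.079 scaled by all tags in peaks, -0.020 with the upper 50% of peaks by width and -0.049 with only the regions shared by every list, a choice made after seeing the data. With TSA in young mice they were 0.090, -0.136 and 0.001 under the same settings. In old against young TSA mice they were 0.376, 0.586 and 0.365, and in old against young vehicle mice 0.545, 0.499 and 0.440, or 0.424 with lists of equal length. H3K9/14ac in old against young TSA mice was 0.117 with the upper 50%. The age differences of H3K27ac in the block kept their sign under all settings run, and the causes of these shifts were not tested. Of 67 alternative values by gene, 26 moved. With 2500 bp in place of 1000 bp around start sites, 7 of 10 members were marked by H3K27ac in every library, young ones included.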
